A study of Mus musculus with 12 samples.

Results

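The genes described here are 8 extracellular matrix genes of the brain: the tenascins Tnc and Tnr, the lectican proteoglycans Ncan (neurocan), Bcan (brevican) and Vcan (versican), the receptor phosphatase Ptprz1, and the matricellular proteins Sparc and Sparcl1. They are 8 of 19938 genes with a probe set of their own on Affymetrix Mouse Gene 1.0 ST arrays, and each is read by 1 such probe set. The genes were chosen by name as a family, and Tnc was picked for its low level in the day 6 cells. Its values against the day 6 cells are therefore given as a description, with no test. Levels are log2 of the deposited intensity, and differences are log2 fold changes.

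The series asks how astrocytes pass to induced pluripotent stem cells (iPSCs), and holds 12 arrays in 5 groups. Astrocyte iPSCs (2 arrays) came from astrocytes with the Sox1-GFP reporter (Sox1+/-), and MEF iPSCs (2 arrays) are the line iPS-MEF-Ng-20D-17 from mouse embryonic fibroblasts, which carries Nanog-GFP-IRES-Puro in place of Sox1-GFP. Both iPSC groups grew on mitomycin C-treated MEF feeder cells with 15% serum or serum replacement and 1500 U/ml of leukaemia inhibitory factor (LIF). Day 6 cells (3 arrays) were the Sox1-GFP-positive cells sorted 6 days after astrocytes received Oct4, Klf4, Sox2 and c-Myc by retrovirus, in 15% serum with 1000 U/ml of LIF. Neural stem cells (NSCs, 2 arrays, Sox1+/-) were grown from the telencephalon at embryonic days 12.5 to 14.5, in N2 medium with 20 ng/ml each of basic FGF and EGF. Astrocytes (3 arrays, Sox1+/-) were cultured from cortex at postnatal day 3 in 10% serum and sorted as Sox1-GFP-negative, before any factor was given. Effects of medium, age, serum and feeder cells cannot be told apart from those of the groups, and day 6 cells that stayed GFP-negative were not analysed here. The submitters call the replicates biological, and no label says that each came from its own culture or animal, so the tests rest on the spread among these arrays, some of which may be technical.

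Tenascins and lecticans build the hyaluronan-based matrix of the brain, in which tenascin-R cross-links lecticans that are held on hyaluronan chains. Tenascin-C is made by radial glia, astrocytes and many embryonic mesenchymal cells, and Ptprz1, whose secreted form is phosphacan, binds tenascins, contactin-1 and pleiotrophin. SPARC binds collagens, and its relative SPARCL1 (hevin) is secreted by astrocytes and acts at synapses.

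Labels and markers were compared first. The sum of 12 pluripotency marker intensities ran from 18664 to 21939 in astrocyte iPSCs and from 20776 to 21896 in MEF iPSCs. It was 1493 to 1543 in day 6 cells, 906 to 914 in NSCs and 1614 to 1785 in astrocytes. Single markers moved both ways: Nanog, Pou5f1 and Fgf4 averaged 7.97, 7.49 and 8.19 in day 6 cells and 6.62, 5.63 and 7.10 in astrocytes. Klf2 and Tfcp2l1 averaged 8.07 and 6.55 in day 6 cells and 9.31 and 8.68 in astrocytes. The sum of 12 astrocyte markers, led by Gfap, Slc1a3 and Aldoc, was 1888 to 3166 over both iPSC groups and day 6 cells, 8663 to 8952 in NSCs and 21748 to 25931 in astrocytes. S100b and Gjb6, which are also on that list, had group means of 5.34 to 6.00. Gja1 averaged 9.61 in astrocyte iPSCs, 9.93 in MEF iPSCs, 10.04 in day 6 cells, 8.89 in NSCs and 10.17 in astrocytes. Acsbg1 averaged 6.91, 6.92, 9.91, 10.59 and 11.41 in the same order, so not every marker on the list was low in day 6 cells. The sum of 10 NSC markers was 3656 to 4299 over both iPSC groups and 7402 to 7878 in day 6 cells. It was 22800 to 23108 in NSCs and 25364 to 27293 in astrocytes, so this list did not set NSCs above astrocytes. Vim and Fabp7 led the list, at 12.44 and 7.43 in day 6 cells and 13.12 and 13.19 in NSCs. Not all its markers followed the sum: Pax6 averaged 8.51 in day 6 cells and 7.96 in NSCs, and Prom1 8.14 and 8.17. Sox1, the gene behind the sort, averaged 8.40 ± 0.13 in day 6 cells and 8.13 ± 0.14 in astrocytes (SD, n = 3 each), a difference of 0.27 on the log2 scale. Arrays of 1 group correlated at Pearson's r of 0.991 to 0.996 across genes. Precision is limited by how few arrays there are. No detection call is at hand, so a low level cannot be separated from background.

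Tnc set the day 6 cells apart from every other group. It stood at 9.73 and 9.89 in astrocyte iPSCs, 9.48 and 9.40 in MEF iPSCs, 5.99, 6.09 and 5.90 in day 6 cells, 10.76 and 10.69 in NSCs, and 11.44, 11.52 and 11.33 in astrocytes. No 2 groups overlapped, and the widest gap lay between the lowest iPSC array and the highest day 6 array, at 3.31. Against astrocytes the day 6 mean was lower by 43.4 times (log2 fold change -5.44 ± 0.08, SE), and against NSCs by 26.5 times (-4.73 ± 0.08). Tnc was higher in astrocyte iPSCs than in day 6 cells by 14.1 times (3.82 ± 0.08) and in MEF iPSCs by 10.9 times (3.45 ± 0.08).

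Among the groups other than day 6 cells Tnc descended in steps. It was lower in NSCs than in astrocytes by a log2 fold change of -0.71 ± 0.08 (limma adjusted p = 2.55e-05), and lower in astrocyte iPSCs than in NSCs, with a difference of -0.91 ± 0.09 (adjusted p = 9.75e-06). Between astrocyte and MEF iPSCs it differed by 0.37 ± 0.09 (adjusted p = 0.0412), and this p was 0.0525 to 0.263 when any 1 of the 4 iPSC arrays, astrocyte replicate 1 or day 6 replicate 1 was left out. In these 3 pairs the arrays did not overlap, and the differences fell short of the fold limit of 1 that, with an adjusted p under 0.05, makes a call here. Pairs farther apart differed by more, with no test run: the difference of Tnc means was -1.99 for MEF iPSCs minus astrocytes, -1.28 for MEF iPSCs minus NSCs and -1.62 for astrocyte iPSCs minus astrocytes. Over the 12 arrays the genes most like Tnc among 2040 genes with group means spanning at least 2 were Mtss1 (Pearson's r = 0.992), Sox2 (0.984) and Plpp3 (0.971). Mtss1, an actin and membrane regulator, averaged 9.38 in astrocyte iPSCs, 9.23 in MEF iPSCs, 7.24 in day 6 cells, 10.08 in NSCs and 10.43 in astrocytes. Sox2, a neural and pluripotency transcription factor and 1 of the 4 delivered genes, averaged 10.76 in astrocyte iPSCs, 10.68 in MEF iPSCs, 8.69 in day 6 cells, 11.00 in NSCs and 11.19 in astrocytes. The 12 points fall into 5 groups that share medium and origin, so these correlations describe group levels.

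**Figure D1:**
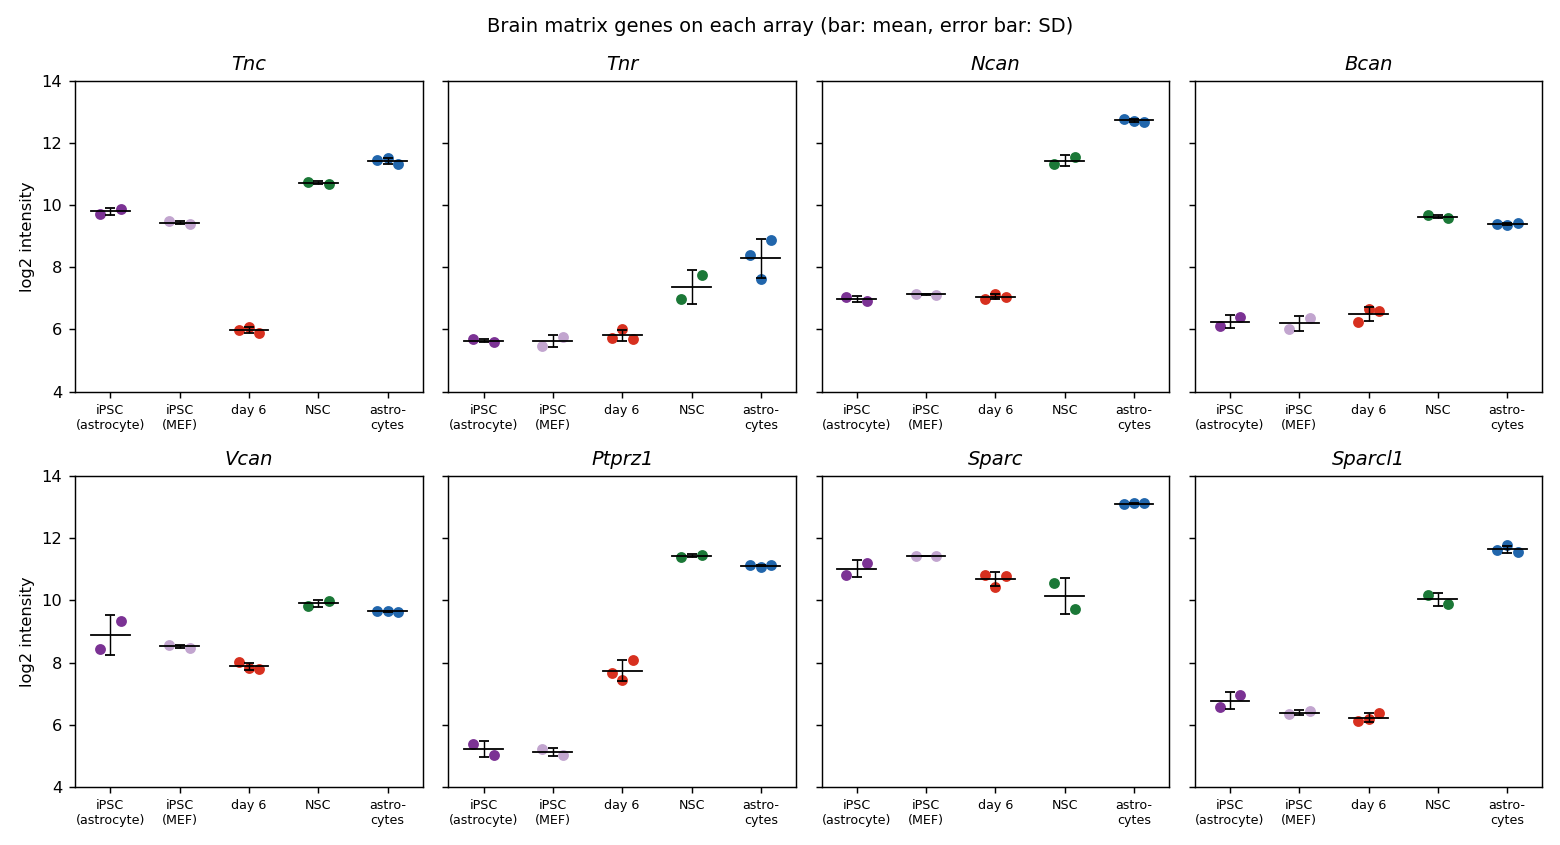
Log2 intensity of the 8 genes on each of the 12 arrays, by group. Points are arrays, horizontal bars are group means and error bars are SD. Tnc is low in the day 6 cells alone, Tnr, Ncan, Bcan and Sparcl1 are low in both iPSC groups and the day 6 cells, and Ptprz1 lies between 7.45 and 8.10 in day 6 cells, above both iPSC groups.

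Promoter windows from RefSeq (build GRCm38.p6, 250 bases before to 50 after a gene's start) were found for 7 of the 8 genes, 8 windows in all since Tnc has 2 that are offset by 79 bases. The windows of 4 genes are shown because they stand for the 4 patterns in the plot of levels by array: low in day 6 cells alone (Tnc, chr4:64046887-64047186, minus strand), high in the neural groups alone (Ncan, chr8:70120795-70121094, minus strand), stepped (Ptprz1, chr6:22875252-22875551, plus strand) and highest in astrocytes with high levels elsewhere (Sparc, chr11:55420031-55420330, minus strand). Capitals mark matches to the E-box CANNTG, the TATA box TATAAA, the GC box GGGCGG and the NFI motif TTGGC, on either strand.
Tnc: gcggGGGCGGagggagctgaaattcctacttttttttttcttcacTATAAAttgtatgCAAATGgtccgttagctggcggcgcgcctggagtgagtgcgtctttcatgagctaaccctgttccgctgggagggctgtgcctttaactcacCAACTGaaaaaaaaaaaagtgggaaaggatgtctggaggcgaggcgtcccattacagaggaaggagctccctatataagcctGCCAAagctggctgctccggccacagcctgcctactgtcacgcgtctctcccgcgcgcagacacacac
Ncan: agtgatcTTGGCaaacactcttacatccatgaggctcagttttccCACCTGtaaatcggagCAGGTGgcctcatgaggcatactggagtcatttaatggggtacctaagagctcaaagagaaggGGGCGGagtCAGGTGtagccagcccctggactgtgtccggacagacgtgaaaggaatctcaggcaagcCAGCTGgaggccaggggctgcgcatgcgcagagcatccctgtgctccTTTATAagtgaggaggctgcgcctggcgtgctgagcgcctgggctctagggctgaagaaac
Ptprz1: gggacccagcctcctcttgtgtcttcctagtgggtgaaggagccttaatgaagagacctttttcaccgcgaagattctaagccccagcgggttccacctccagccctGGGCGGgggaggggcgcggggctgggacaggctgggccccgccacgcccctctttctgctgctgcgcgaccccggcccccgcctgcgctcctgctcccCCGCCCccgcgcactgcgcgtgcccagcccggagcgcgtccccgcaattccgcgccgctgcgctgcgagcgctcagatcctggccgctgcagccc
Sparc: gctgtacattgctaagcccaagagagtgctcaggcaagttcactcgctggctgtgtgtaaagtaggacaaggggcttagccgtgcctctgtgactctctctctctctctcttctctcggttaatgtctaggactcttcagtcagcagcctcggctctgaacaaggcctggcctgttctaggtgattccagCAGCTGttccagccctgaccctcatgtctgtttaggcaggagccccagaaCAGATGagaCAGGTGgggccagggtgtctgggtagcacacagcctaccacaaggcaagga
The windows differed in base composition. Ptprz1 had 29 CpG dinucleotides and Bcan 24, while Ncan had 9, Sparc 4 and Tnr 3, beside a median of 7 and quartiles of 3 and 20 over 32851 windows of the table. Vcan had 12, and the Tnc windows 16 and 10. The GC box was found in 6 of the 8 windows (35.7% of all windows hold it), the E-box in 5 (72.3%), the RBPJ motif TGGGAA in 5 (25.6%), the TATA box in 3 (13.6%) and the NFI motif in 2 (46.7%). None of the 8 windows held the AP-1 motif TGANTCA (7.81% of all windows), the SOX motif AACAAT (10.7%) or the TEAD motif GGAATG (14.7%). Matches of different motifs overlapped at 1 place. The 8 windows include both of Tnc, which share most of their bases, and a match describes letters only. Genes that fell together in day 6 cells thus had windows ranging from few to many CpG dinucleotides.

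Tenascin-R, the lecticans, Ptprz1 and both SPARC proteins were also lower in day 6 cells than in astrocytes. Of the 7 genes other than Tnc, 7 were lower and 0 higher by limma, where 10.1% of all genes were lower and 6.75% higher. This is the contrast from which Tnc was picked, and nothing is read from the count. For all 8 genes, with Tnc picked for its low day 6 level, every day 6 array lay below every astrocyte array. The share of all genes without overlap was not counted, so nothing is read from this either. In these bulk samples fewer cells that make a transcript and less RNA per cell cannot be told apart.

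Ncan, which encodes the lectican neurocan of the developing brain, had the largest difference between day 6 cells and astrocytes among the 7 genes tested there. It stood at 7.05 and 6.92 in astrocyte iPSCs, 7.14 and 7.12 in MEF iPSCs, 6.99, 7.13 and 7.03 in day 6 cells, 11.32 and 11.56 in NSCs, and 12.78, 12.72 and 12.69 in astrocytes. Day 6 cells overlapped both iPSC groups and lay far below both neural groups. Ncan fell by 5.68 ± 0.07 (SE) on the log2 scale in day 6 cells relative to astrocytes (limma adjusted p = 3.75e-12). Against NSCs its difference was -4.38 ± 0.08 (adjusted p = 1.32e-10). Between astrocyte iPSCs and day 6 cells it was -0.07, with a 95% interval of -0.25 to 0.11. The gene most like Ncan over the 12 arrays was Dner (r = 0.999), a Notch-pathway transmembrane protein of neural cells.

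Sparcl1 followed Ncan closely (Pearson's r = 0.992 over the 12 arrays). Its levels were 6.58 and 6.96 in astrocyte iPSCs, 6.33 and 6.44 in MEF iPSCs, 6.11, 6.20 and 6.38 in day 6 cells, 10.19 and 9.88 in NSCs, and 11.63, 11.77 and 11.56 in astrocytes. Both neural groups stood above the other 3, and astrocytes above NSCs, with no overlap. Day 6 cells had 42.9 times less than astrocytes (-5.42 ± 0.12, adjusted p = 3.18e-11) and also less than NSCs (-3.81 ± 0.13, adjusted p = 3.14e-09). Astrocyte iPSCs were above day 6 cells by 0.54 ± 0.13 (adjusted p = 0.00831), under the fold limit. Without astrocyte iPSC replicate 2 this Sparcl1 difference was 0.35 (adjusted p = 0.113).

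Bcan, the lectican brevican of maturing brain matrix, was high in both neural groups. It stood at 6.11 and 6.40 in astrocyte iPSCs, 6.02 and 6.37 in MEF iPSCs, 6.24, 6.66 and 6.59 in day 6 cells, 9.67 and 9.59 in NSCs, and 9.39, 9.35 and 9.43 in astrocytes. Day 6 arrays overlapped those of both iPSC groups. The difference of Bcan in day 6 cells was -2.90 ± 0.12 against astrocytes (adjusted p = 4.29e-09) and -3.13 ± 0.14 against NSCs (adjusted p = 1.71e-08). Fabp7, the brain lipid-binding protein of radial glia, was most like it (r = 0.994).

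Tnr, a tenascin of oligodendrocyte lineage cells and some neurons, varied more between astrocyte arrays (SD 0.63, n = 3) than any other of the 8 genes. Its levels were 5.68 and 5.60 in astrocyte iPSCs, 5.48 and 5.75 in MEF iPSCs, 5.72, 6.02 and 5.69 in day 6 cells, 6.97 and 7.75 in NSCs, and 8.39, 7.63 and 8.87 in astrocytes. NSC and astrocyte arrays overlapped, and all of them lay above the other 3 groups. The difference of day 6 cells was -2.49 ± 0.27 against astrocytes (adjusted p = 1.04e-05) and -1.55 ± 0.31 against NSCs (adjusted p = 0.00188). Ptprd was the gene most like it (r = 0.982). Over the 10 markers of oligodendrocyte precursors, which make Tnr, Bcan and Ptprz1 in brain, the summed intensity was 1221 to 1484 in astrocyte iPSCs, 1871 to 1924 in MEF iPSCs, 826 to 860 in day 6 cells, 9871 to 10141 in NSCs and 4163 to 5695 in astrocytes. Olig2 and Olig1 led this list in the neural groups, at 12.21 and 11.57 in NSCs and 10.65 and 10.61 in astrocytes. In astrocytes the sum rested on these and Bmp4 (10.11), the 3 of 10 markers that were lower in day 6 cells. Over all genes 10.1% were lower in that comparison. Pdgfra and Sox10 averaged 6.22 and 6.59 in day 6 cells and 6.57 and 6.56 in astrocytes. The part of these markers in the levels of the 3 genes was not tested.

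Ptprz1 was the gene for which day 6 cells lay between the neural and the pluripotent groups. It stood at 5.38 and 5.03 in astrocyte iPSCs, 5.22 and 5.02 in MEF iPSCs, 7.66, 7.45 and 8.10 in day 6 cells, 11.40 and 11.47 in NSCs, and 11.14, 11.09 and 11.14 in astrocytes. Day 6 cells overlapped no other group. Their difference was -3.39 ± 0.14 against astrocytes (adjusted p = 4.37e-09) and -3.70 ± 0.16 against NSCs (adjusted p = 1.65e-08). Against day 6 cells the difference was -2.53 ± 0.16 in astrocyte iPSCs (adjusted p = 5.15e-07) and -2.62 ± 0.16 in MEF iPSCs (adjusted p = 4.37e-07). In astrocyte iPSCs against NSCs the difference was -6.23 ± 0.18 (adjusted p = 8.34e-10). The genes most like Ptprz1 over the 12 arrays were Dennd5a (r = 0.993), Dpysl2 (0.993) and Adgrb3 (0.992).

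Vcan, the lectican versican that is widely made in embryonic and mesenchymal tissue, varied least among the 8 genes, with group means spanning 2.03. It stood at 8.43 and 9.34 in astrocyte iPSCs, 8.55 and 8.48 in MEF iPSCs, 8.01, 7.83 and 7.78 in day 6 cells, 9.82 and 9.99 in NSCs, and 9.65, 9.65 and 9.64 in astrocytes. Day 6 cells were lowest and overlapped no other group, and the astrocyte iPSC arrays stood apart from each other. Its difference in day 6 cells was -1.77 ± 0.17 against astrocytes (adjusted p = 3.89e-06) and -2.03 ± 0.19 against NSCs (adjusted p = 8.19e-06). In astrocyte iPSCs it was higher than in day 6 cells by 1.02 ± 0.19 (adjusted p = 0.00195), and in MEF iPSCs by 0.64 ± 0.19 (adjusted p = 0.0266), which is under the fold limit and had adjusted p of 0.0711 to 0.141 without day 6 replicate 2, day 6 replicate 3 or either MEF iPSC array. The call in astrocyte iPSCs was lost without astrocyte iPSC replicate 2, where the difference was 0.56, and without day 6 replicate 2 (0.995) or day 6 replicate 3 (0.97). Farp1 (r = 0.969) was most like Vcan, and Vcan itself correlated with Tnc at 0.902.

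Sparc had a log2 intensity of at least 9.73 on every array and least followed the others, with Pearson's r of 0.29 to 0.61 against the other 7 over the 12 arrays. Its levels were 10.82 and 11.21 in astrocyte iPSCs, 11.44 and 11.42 in MEF iPSCs, 10.83, 10.44 and 10.79 in day 6 cells, 10.55 and 9.73 in NSCs, and 13.10, 13.13 and 13.13 in astrocytes. Astrocytes stood above the rest, and day 6 cells overlapped both NSCs and astrocyte iPSCs. Sparc was lower in day 6 cells than in astrocytes, with a difference of -2.43 ± 0.18 (adjusted p = 3.80e-07). Against NSCs it differed by 0.54 ± 0.20 (adjusted p = 0.0556), with a 95% interval of 0.10 to 0.99. This value rests on single NSC arrays: it was 0.95 without NSC replicate 1 (adjusted p = 0.00122) and 0.14 without NSC replicate 2 (adjusted p = 0.583). Pltp, phospholipid transfer protein, was most like Sparc (r = 0.979).

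Day 6 cells were also compared with NSCs, from which they differ in medium, serum and age of origin as well. Of the 7 genes other than Tnc, 6 were lower and 0 higher in day 6 cells by limma, against 5.94% lower and 2.94% higher of all genes, and Sparc was not called. For 7 of the 8 genes, Tnc among them, all day 6 arrays lay below all NSC arrays. How many of all genes do the same was not counted. The median log2 fold change of the 7 genes was -3.13, beside 0.07 over all genes. Tnc was picked for its low level on these same day 6 arrays, and the family was chosen with earlier results known. Nothing is therefore read from these counts or this median, and how near day 6 cells stand to NSCs was not tested.

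The iPSC groups were set against day 6 cells for the later step of reprogramming. In astrocyte iPSCs 1 of 7 genes was higher, Vcan, and 1 lower, Ptprz1, where 3.29% of all genes were higher and 2.82% lower. In MEF iPSCs 0 of 7 were higher and 1 lower, again Ptprz1, where 3.18% of all genes were higher and 2.93% lower. Tnr, Ncan and Bcan were not called in either comparison, and their log2 fold changes ran from -0.30 to 0.08. Both comparisons use the same day 6 arrays.

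**Figure D2:**
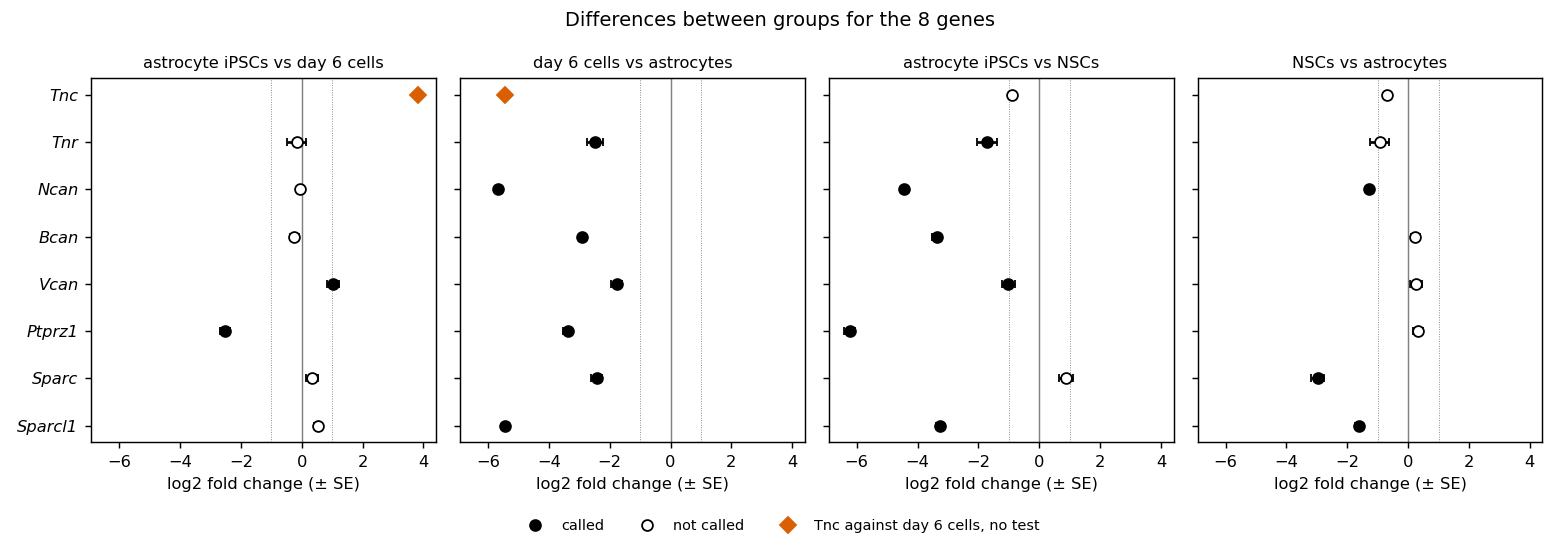
Log2 fold changes with limma standard errors (bars) of the 8 genes in 4 comparisons, the first-named group over the second. Filled points passed an adjusted p under 0.05 and a fold limit of 1 (dotted lines), open points did not, and the diamonds are Tnc against day 6 cells, which was not tested. Ptprz1 falls again from day 6 cells to iPSCs, with a difference of -2.53, while Ncan and Bcan stay near 0.

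NSCs against astrocytes and iPSCs against NSCs contain no day 6 array, so all 8 genes could be tested there. In NSCs 3 of 8 genes were lower than in astrocytes and 0 higher by limma, against 8.1% lower and 6.49% higher of all genes. Sparc fell by 2.98 ± 0.20 (SE) on the log2 scale (adjusted p = 3.08e-07), Sparcl1 by 1.62 ± 0.13 (adjusted p = 1.22e-06) and Ncan by 1.29 ± 0.08 (adjusted p = 1.85e-07). Bcan, Vcan and Ptprz1 each had slightly higher arrays in NSCs than in astrocytes, with no overlap, and differences of 0.24, 0.26 and 0.31 that did not pass (smallest adjusted p = 0.150). Their 95% intervals were -0.06 to 0.54, -0.17 to 0.69 and -0.04 to 0.67. The fit shares 1 spread over all groups. For Vcan the SD was 0.64 in astrocyte iPSCs, 0.12 in NSCs and 0.0065 in astrocytes. Without day 6 replicate 3 the limma adjusted p of Ptprz1 was 0.0444, at the same difference. Tnr was lower, with a difference of -0.93 ± 0.31 (adjusted p = 0.0262), under the fold limit, and was called without astrocyte replicate 2 (-1.27) or without NSC replicate 2 (-1.32). Without NSC replicate 1 it was -0.55 (adjusted p = 0.272).

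In astrocyte iPSCs 6 of 8 genes were lower than in NSCs and 0 higher, against 7.51% lower and 5.03% higher of all genes. Besides Ptprz1, these were Ncan (-4.45 ± 0.09), Bcan (-3.38 ± 0.15), Sparcl1 (-3.26 ± 0.14), Tnr (-1.72 ± 0.34) and Vcan (-1.02 ± 0.21), with a largest adjusted p of 0.00228 by limma. Vcan was no longer called without astrocyte iPSC replicate 1, where it was -0.56, or without NSC replicate 2 (-0.93). Sparc was higher by 0.87 ± 0.22 (adjusted p = 0.0077), under the fold limit, and was called at 1.28 without NSC replicate 1 and at 1.07 without astrocyte iPSC replicate 1. Without NSC replicate 2 it was 0.46 (adjusted p = 0.0645).

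Between astrocyte iPSCs and MEF iPSCs 0 of 8 genes were called higher and 0 lower by limma, where 0.461% of all genes were higher and 0.281% lower. Tnc and Sparcl1, 2 of 8, had an unadjusted limma p under 0.05, and the share of all genes at that p was not counted. The largest differences among the 8 genes were those of Sparc (-0.42 ± 0.22, adjusted p = 0.419), Sparcl1 (0.39 ± 0.14, adjusted p = 0.181) and Vcan (0.37 ± 0.21, adjusted p = 0.47). Without astrocyte iPSC replicate 1 the Vcan difference was 0.82 (adjusted p = 0.0036). For Tnc the 95% interval of the difference was 0.17 to 0.57.

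Both iPSC groups grew on feeder fibroblasts, which can make Tnc, Vcan and Sparc. The summed intensity of 12 fibroblast and feeder markers was 4195 and 7196 in astrocyte iPSCs, 3726 and 3508 in MEF iPSCs, 1677 to 1903 in day 6 cells, 1315 and 1414 in NSCs, and 5980 to 6762 in astrocytes. For 10 of the 12 markers all 4 iPSC arrays lay above all day 6 arrays. How many of all genes do the same was not counted, so nothing is read from this count. Decorin (Dcn), a proteoglycan of fibroblasts, averaged 10.87 in astrocyte iPSCs and 9.97 in MEF iPSCs, against 6.40 in day 6 cells. Prrx1 went the other way, at 8.25 in astrocyte iPSCs, 7.88 in MEF iPSCs and 9.08 in day 6 cells. Twist1 averaged 6.64, 6.49 and 6.53 in the same groups. Thy1 led this list in astrocytes, at 11.79, and is also a gene of neural cells. All 12 markers were higher on astrocyte iPSC replicate 2 than on replicate 1, by a median of 0.72, with the share of all genes not counted. Vcan was 9.34 and 8.43 on astrocyte iPSC replicates 2 and 1. Tnc was 9.89 and 9.73 on the same arrays, and Sparc 11.21 and 10.82. NSCs had the lowest marker sums and a Tnc level above that of both iPSC groups. The summed intensity of 10 markers of primitive and parietal endoderm, a lineage that makes much Sparc, was 2143 and 2558 in astrocyte iPSCs. It was 3582 and 3553 in MEF iPSCs and 1477 to 1592 in day 6 cells. NSCs had 1032 to 1088 and astrocytes 1906 to 2093. Lamb1, Dab2 and Col4a1 led this list. Of its 10 markers 2 were called higher in astrocyte iPSCs than in day 6 cells, where 3.29% of all genes were higher. In MEF iPSCs 4 were called higher, where 3.18% of all genes were. What part feeder RNA or endoderm-like cells have in the iPSC levels of Tnc, Vcan and Sparc was not tested.

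**Figure D3:**
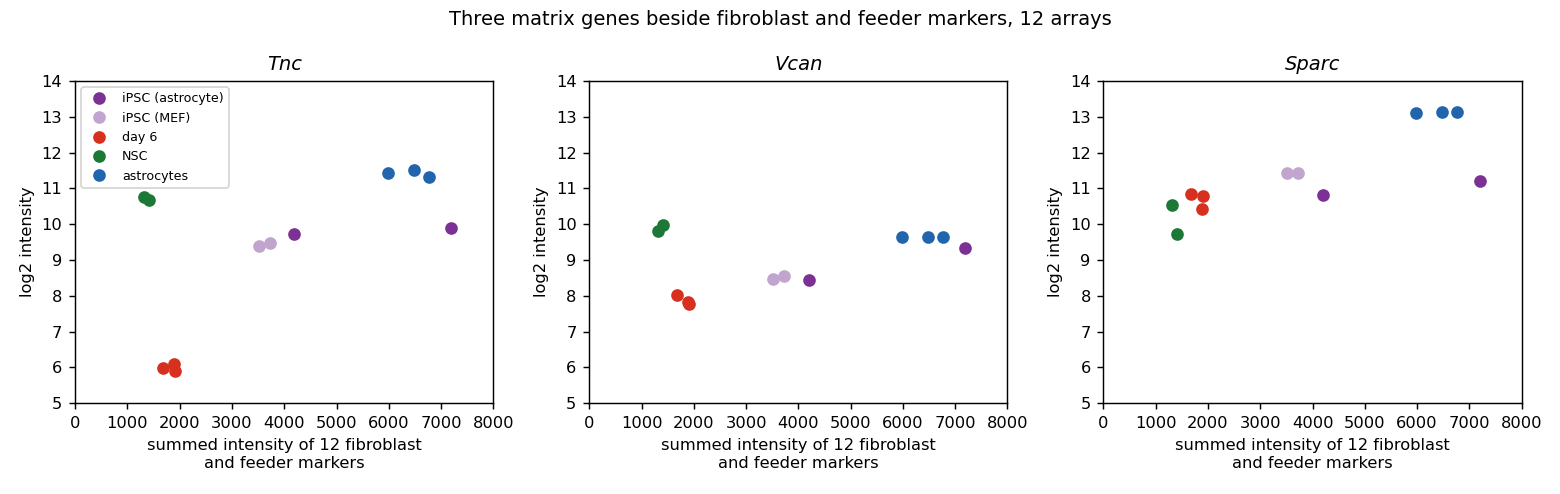
Log2 intensity of Tnc, Vcan and Sparc (vertical axes) against the summed intensity of 12 fibroblast and feeder markers (horizontal axis) on the 12 arrays, coloured by group. The 4 iPSC arrays have sums of 3508 to 7196, above the day 6 arrays at 1677 to 1903, and NSC arrays combine the lowest sums with Tnc levels of 10.69 and 10.76.

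Markers of other cells that the cultures can hold were also summed. The 10 microglia markers summed to 554 to 643 over the iPSCs, day 6 cells and NSCs, and to 746 to 908 in astrocytes. Of these, 0 of 10 were called in day 6 cells against astrocytes by limma, with 7 at an unadjusted p under 0.05. The brightest, C1qa, averaged 6.45 in day 6 cells and 7.26 in astrocytes. The share of all genes at that unadjusted p was not counted. The 10 endothelial and pericyte markers summed to 605 to 802 over all arrays. The 10 neuronal markers summed to 2637 to 2694 in astrocyte iPSCs, 3515 to 3593 in MEF iPSCs, 8702 to 9133 in day 6 cells, 6154 to 9163 in NSCs and 6589 to 7941 in astrocytes. The day 6 sum rested on Stmn2 and Nefl, which averaged 12.22 and 11.75 in day 6 cells and 12.44 and 6.61 in astrocytes. Nefl was the 1 marker called higher in day 6 cells than in astrocytes. Map2 was the 1 called lower (7.03 in day 6 cells, 9.91 in astrocytes), with a list median of 0.04. For day 6 cells against astrocytes, in this and the microglia count, 10.1% of all genes were lower and 6.75% higher. In NSCs 6 of 10 were higher than in astrocytes and 1 lower (median 1.43), where 6.49% of all genes were higher and 8.1% lower. Dcx was among the higher markers (9.40 in NSCs, 5.45 in astrocytes). In day 6 cells 5 of 10 were lower than in NSCs and 2 higher, where 5.94% of all genes were lower and 2.94% higher.

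Other genes of the same matrix were counted in 6 lists, to be read against the share of all genes called: 10.1% lower and 6.75% higher in day 6 cells against astrocytes, 8.1% and 6.49% in NSCs against astrocytes, and 7.51% and 5.03% in astrocyte iPSCs against NSCs. Receptors and ligands of tenascins and Ptprz1 had 9 of 19 members lower and 0 higher in day 6 cells against astrocytes by limma (median log2 fold change -0.96, beside 0.04 over all genes). Itgb8, an integrin chain, stood at 6.07 ± 0.09 in day 6 cells and 11.32 ± 0.12 in astrocytes (SD, n = 3 each), a difference of -5.25 ± 0.10 (adjusted p = 1.23e-11), and was also the gene most like Sparcl1 over the 12 arrays (r = 0.997). Nrcam, a neuronal and glial adhesion molecule, fell by 3.95 ± 0.13 and Ptn, the Ptprz1 ligand pleiotrophin, by 2.96 ± 0.15. In NSCs against astrocytes 3 members were higher and 5 lower, among them L1cam (2.22 ± 0.23), an axonal adhesion molecule, and the integrin chain Itgav (-1.58 ± 0.09). In astrocyte iPSCs against NSCs 1 was higher and 10 lower, among them Ptn (-4.27 ± 0.18).

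Matrix proteases and their inhibitors had 7 of 15 measured members lower and 1 higher in day 6 cells than in astrocytes (median -0.93, all genes 10.1% lower and 6.75% higher). The largest differences were those of the metalloprotease inhibitors Timp2 (-5.07 ± 0.23) and Timp3 (-3.54 ± 0.17) and of Plat, tissue plasminogen activator (-3.61 ± 0.15), with a largest adjusted p of 9.63e-09 by limma. In NSCs 0 were higher and 6 lower than in astrocytes, with Timp3 at -5.04 ± 0.19 and Timp2 at -3.57 ± 0.26. In astrocyte iPSCs 3 were higher and 4 lower than in NSCs, and Mmp3, stromelysin-1, was higher by 4.48 ± 0.24 and Timp1 by 2.51 ± 0.14. The summed intensity of this list was 3639 and 6050 on astrocyte iPSC replicates 1 and 2, where the feeder markers summed to 4195 and 7196, and Mmp3 had an SD of 0.63 there (n = 2). The part of feeder RNA in these values was not tested.

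Chondroitin sulfate chains are carried by the lecticans and by Ptprz1. Of 21 genes of their synthesis, 4 were lower and 0 higher in day 6 cells than in astrocytes (median -0.43, all genes 10.1% lower and 6.75% higher), led by Dse (-1.74 ± 0.08), an epimerase that makes dermatan sulfate, the sulfotransferase Chst11 (-1.74 ± 0.11) and Xylt1 (-1.48 ± 0.08), which starts the chain. Xylt1 was higher in NSCs than in astrocytes (2.07 ± 0.08), and 2 of 21 members were higher and 1 lower there, near or below the shares of all genes (6.49% higher, 8.1% lower). In astrocyte iPSCs 1 was higher and 5 lower than in NSCs, with Xylt1 at -3.79 ± 0.09 and Chst11 at -2.73 ± 0.14.

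Hyaluronan genes, link proteins and receptors had 2 of 11 measured members lower and 1 higher in day 6 cells than in astrocytes (median 0.03), where 10.1% of all genes were lower and 6.75% higher. Cemip, a hyaluronan-degrading factor, fell by 3.67 ± 0.11 and the link protein Hapln1 by 1.51 ± 0.16, while Hmmr, a mitotic protein first described as a hyaluronan receptor, rose by 1.52 ± 0.10. In NSCs against astrocytes 1 was higher and 3 lower, with Cemip at -4.82 ± 0.13 and Cd44, the main hyaluronan receptor, at -2.13 ± 0.13. In astrocyte iPSCs against NSCs the hyaluronan synthase Has2 was higher by 1.30 ± 0.10 and Cd44 lower, with a difference of -1.01 ± 0.14, the 1 member called in each direction.

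Of 5 further tenascin, lectican and chondroitin sulfate core proteins, 1 was lower in day 6 cells than in astrocytes and 0 higher, where 10.1% of all genes were lower and 6.75% higher. This was Cspg5 (neuroglycan C), at -1.36 ± 0.08 (adjusted p = 4.15e-08 by limma). Acan and Cspg4 were not called, at 0.21 ± 0.07 and -0.18 ± 0.13. In NSCs against astrocytes Cspg5 (1.12 ± 0.09) and Cspg4 (1.04 ± 0.15) were higher, and in astrocyte iPSCs against NSCs both were lower (-2.37 ± 0.09 and -1.49 ± 0.16). Of 6 SPARC relatives 0 were called in day 6 cells against astrocytes by limma, with 1 at an unadjusted p under 0.05. The share of all genes at that p was not counted. The largest difference was that of Spock2, a testican (0.65 ± 0.12). In NSCs 2 of these 6 were higher than in astrocytes, Smoc1 (2.53 ± 0.09) and Spock2 (1.59 ± 0.14), and 1 lower, Fstl1 (-2.57 ± 0.14). In astrocyte iPSCs 2 were lower than in NSCs and 0 higher, Smoc1 at -1.47 ± 0.10 and Spock2 at -1.18 ± 0.15.

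**Figure D4:**
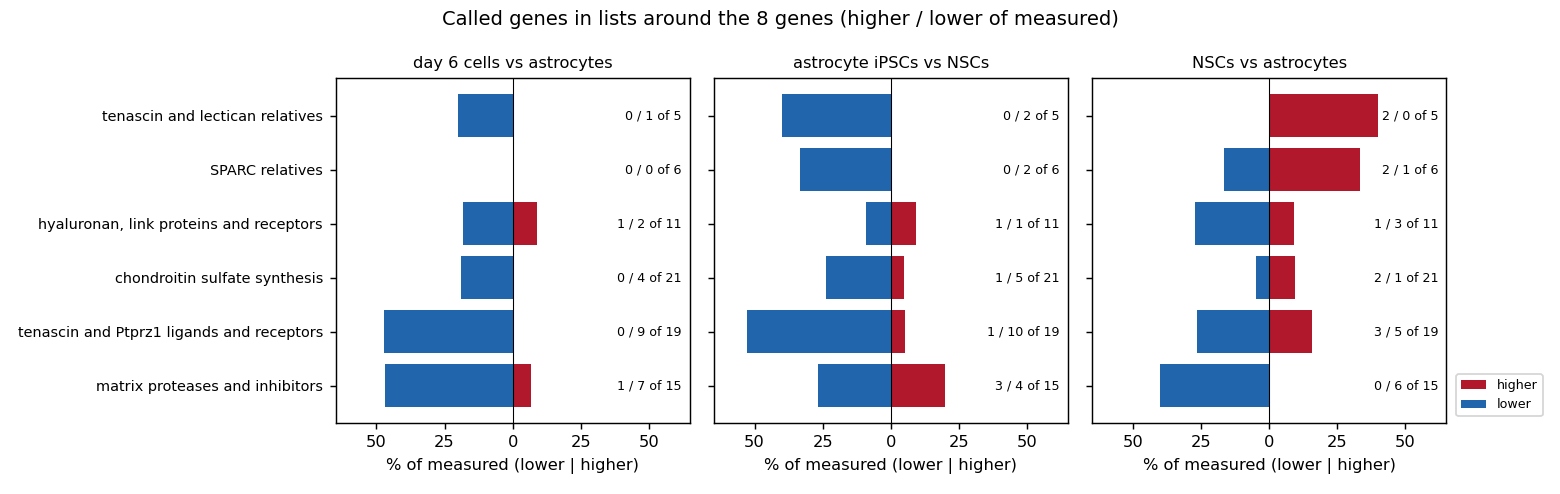
Share of measured genes of 6 lists that were called lower (left, blue) or higher (right, red) in 3 comparisons, the first-named group against the second, with the counts at the right of each bar. Receptors and ligands of tenascins and Ptprz1 had 9 of 19 lower in day 6 cells against astrocytes and 10 of 19 lower in astrocyte iPSCs against NSCs.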

How the data were processed

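The deposited table holds probe set intensities on a linear scale from 12 arrays, made by the authors with RMA (robust multi-array averaging), per the submitters' processing notes. Its version and the software that ran it are not given in the sources used here. Intensities ran from 20.2 to 15436, and all steps used their log2. The lower end leaves unknown whether a constant was added, which would shrink differences of dim genes. Of 28853 probe sets, 21789 carry 1 gene symbol in the platform annotation, and for each of 19938 genes the probe set with the highest mean was kept.

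Group means were fitted over all arrays with limma 3.58.1 in R 4.3.3 (lmFit, eBayes, 7 residual degrees of freedom). Benjamini-Hochberg adjustment ran over all genes, and a call needs an adjusted p under 0.05 with a log2 fold change of 1 or more in either direction. The script was tested on simulated data. Of 178 list entries, 173 were measured. The members, lists and rules were chosen with earlier results of these data known. Named list genes are the largest changes in 3 comparisons and the brightest markers, and likeness is Pearson's r over 12 arrays. Alternatives changed the probe set rule, dim-gene filter, scaling, constant, arrays fitted, variance prior, array weights, thresholds, replicate block and each array in turn. Python 3.11.15, pandas 2.3.3 and matplotlib 3.10.9 made tables and figures.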

Additional observations from a re-analysis of the deposited data

How the results depend on the processing

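No alternative turned the direction of a called difference of the 8 genes. In day 6 cells against astrocytes 7 of 7 genes, and against NSCs 6 of 7, were called under all 24 alternatives. Without the fold limit more genes passed: 3 of 7 in each iPSC group against day 6 cells, 8 of 8 in astrocyte iPSCs against NSCs, 5 of 8 in NSCs against astrocytes and 1 of 8, Tnc, between the iPSC groups. Over all genes it gave 9755 calls in day 6 cells against astrocytes, 7655 against NSCs, 5896 in astrocyte iPSCs and 5932 in MEF iPSCs against day 6 cells, 9144 in NSCs against astrocytes, 8441 in astrocyte iPSCs against NSCs and 1150 between the iPSC groups, against 3360, 1771, 1218, 1219, 2907, 2500 and 148 with it. With the replicate number as a block, 1 of 7 genes was called in astrocyte iPSCs against day 6 cells, since Vcan was at 0.99. Leaving out 1 array gave 1 to 2 calls there. Same-numbered astrocyte and day 6 arrays deviated together at r of 0.41, -0.01 and 0.22. These values do not settle whether the numbers pair the samples, and the block changed no other call of the 8 genes. Centring arrays on the median moved the median of all genes by 0.10 in day 6 cells against astrocytes, and Tnc was -5.34 there, -5.59 with cyclic loess and -5.85 with 16 subtracted from the intensities. The same subtraction brought Tnr in NSCs against astrocytes to -1.01, a call. Vcan in astrocyte iPSCs against NSCs was not called with centring (-0.997) or with only these arrays fitted (adjusted p = 0.0573). Low levels are limited by the lower end of the intensities.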
